A study of Mus musculus with 2 samples.

Results

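Haemoglobin-dominated red cell barcodes were droplet barcodes whose RNA was mostly adult haemoglobin messenger RNA. They were chosen from all barcodes by their values: at least 100 unique molecular identifiers (UMIs, counted RNA molecules) outside the mitochondrial mt- genes, of which the 4 adult globin genes Hbb-bs, Hbb-bt, Hba-a1 and Hba-a2 made up more than 50%, with no minimum number of genes. The rule found 166 of 2704 barcodes in replicate 1 and 145 of 2266 in replicate 2, 311 of 4970 in all. The data were 10x Genomics droplet single-cell RNA counts of mouse brain tumour, strain C57BL/6, carrying mutant IDH1 (mIDH1), at the symptomatic stage. Both libraries belonged to the same group, and the labels named no untreated tissue, no age and no separate animals. Intervals are exact 95% intervals and cover counting error only, and no p-value is given, because 2 libraries of 1 group leave no comparison between samples and the globin share itself chose the barcodes.

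Haemoglobin is a tetramer of α and β chains, each holding a haem group that binds oxygen. Red cell precursors fill with globin mRNA, expel the nucleus and become reticulocytes, which keep RNA for a short time while they degrade their organelles and ribosomes. Mature red cells of the mouse lack a nucleus and make almost no new RNA, so the transcripts found in circulating red cells are remnants. Adult mice carry a pair of β genes, Hbb-bs and Hbb-bt, on chromosome 7 and a pair of α genes, Hba-a1 and Hba-a2, on chromosome 11.

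The sequences before the start sites are shown because the split of β UMIs between Hbb-bs and Hbb-bt varied widely from barcode to barcode, and the split between the α genes varied less. The windows hold the 150 bases before the transcription start that RefSeq gives (GRCm38.p6), read 5′ to 3′ on the gene's strand. They lie at chr7:103827929-103828078 (minus strand) for Hbb-bs, chr7:103813924-103814073 (minus strand) for Hbb-bt, chr11:32283522-32283671 (plus strand) for Hba-a1 and chrX:150547267-150547416 (plus strand) for Alas2. Capitals mark the box CCACACCC bound by Krüppel-like factors, the common promoter box CCAAT, the TATA-type box written as ATATAA, and the motif of GATA factors, written as AGATAA or, in its other form, as TGATAA. Each was searched on both strands. Where capitals differ from these letters, the match lies on the opposite strand.
Hbb-bs: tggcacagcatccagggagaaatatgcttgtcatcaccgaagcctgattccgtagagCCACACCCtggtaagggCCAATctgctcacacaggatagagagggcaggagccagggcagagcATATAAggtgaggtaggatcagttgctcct
Hbb-bt: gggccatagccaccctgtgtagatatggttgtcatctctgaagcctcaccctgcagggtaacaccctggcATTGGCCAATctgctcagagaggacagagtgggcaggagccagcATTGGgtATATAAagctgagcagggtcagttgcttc
Hba-a1: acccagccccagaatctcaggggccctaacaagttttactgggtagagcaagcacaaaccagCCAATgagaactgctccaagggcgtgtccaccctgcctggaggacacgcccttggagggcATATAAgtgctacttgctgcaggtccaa
Alas2: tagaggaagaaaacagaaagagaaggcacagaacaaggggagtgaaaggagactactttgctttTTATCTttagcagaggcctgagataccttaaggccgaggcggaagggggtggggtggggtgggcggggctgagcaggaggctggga

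Both β windows held CCAAT at 76 to 72 (Hbb-bs) and 75 to 71 (Hbb-bt) bases before the start and ATATAA at 30 to 25 and 29 to 24 bases before it. CCACACCC was found in the Hbb-bs window, 93 to 86 bases before the start, and not in the Hbb-bt window. Over 32851 promoter windows of the same length, CCACACCC was held by 2.18%, CCAAT by 24.5%, ATATAA by 5.35%, AGATAA by 5.65% and TGATAA by 4.45%, and no match overlapped another in the windows shown. The aligned β windows were identical at 115 of 156 positions (73.7%). The promoter of Hba-a2 was identical to that of Hba-a1 at all 297 bases compared once shifted by 3 bases, so it is not printed. Alas2, the erythroid form of the first enzyme of haem synthesis, held AGATAA on the opposite strand and no exact match to the other motifs. A match describes letters in the window and does not show that a factor binds there. Only the exact letters were searched, so a missing match does not show that a box with slightly different letters is absent.

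The globin share divided the barcodes into groups with few between them. Of the barcodes with at least 100 UMIs outside mt- genes, only 5 in replicate 1 and 3 in replicate 2 had a globin share between 10 and 90%. The lowest shares among the members were 58.0%, 61.9% and 87.3% in replicate 1 and 66.3%, 67.7% and 90.2% in replicate 2. Just outside the threshold were barcodes with 49.8% and 13.9% in replicate 1 and with 21.5% and 7.87% in replicate 2. The barcode at 49.8% held 115 globin UMIs among 231 outside mt- genes, and mt- genes made up 87.0% of all its UMIs.

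**Figure D1:**
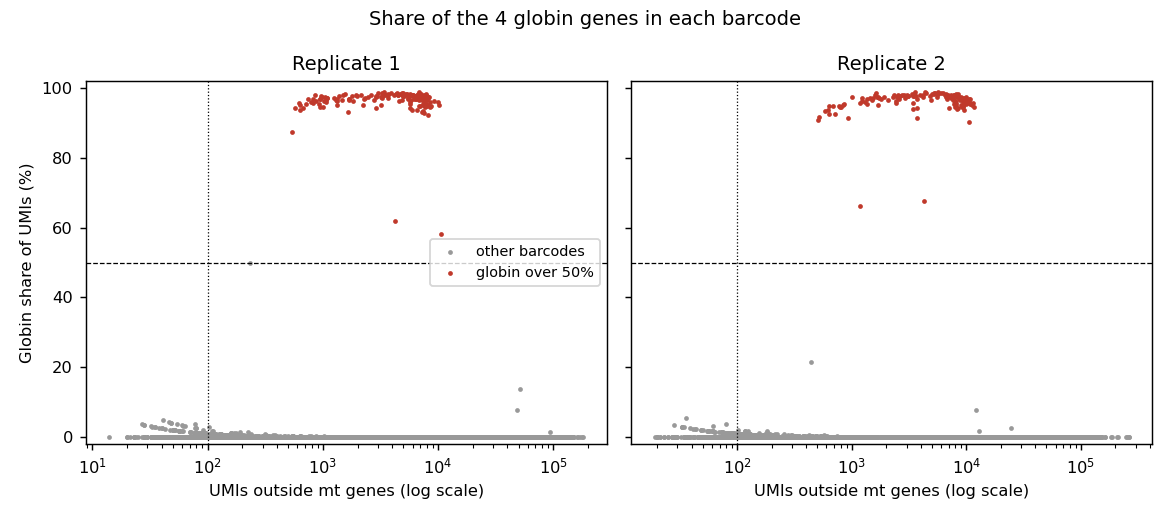
Share of the 4 globin genes among UMIs outside mt- genes (vertical axis, %) against those UMIs (horizontal axis, log scale) for each barcode of replicate 1 (left) and replicate 2 (right). Dashed and dotted lines mark the limits of 50% and 100 UMIs; most members lie above 90% and nearly all other barcodes lie near 0.

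The members made up 6.14% of the barcodes of replicate 1 (95% Clopper-Pearson interval 5.26 to 7.11%) and 6.40% of those of replicate 2 (5.43 to 7.49%), a mean of 6.27% ± 0.184 (SD, n = 2 libraries). They held 1.24% and 1.33% of all UMIs, but 98.2% and 99.6% of the globin UMIs. The median member held 4957.5 globin UMIs in replicate 1 (473 to 9770) and 5191 in replicate 2 (462 to 11036). Outside the globin and mt- genes, the median member held 115.5 UMIs (16 to 4442) and 113 UMIs (24 to 1370). The other barcodes had medians of 9866.5 and 10586 UMIs outside mt- genes. A usual cell filter of at least 200 genes and at most 15% mt- UMIs would have kept 4 of the 166 and 3 of the 145 members, since 162 and 141 had fewer than 200 genes. The number of genes per member had a median of 66.5 and 69.

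The name was checked on erythroid markers that the rule did not use. Alas2, Slc25a37, Bpgm and Slc4a1 were counted in the members of both libraries, Hemgn had 1 and 2 UMIs, and Fam46c is an older symbol of the marker Tent5c. The marker Ahsp was not analysed here. The labels describe the samples as tumour cells, and the markers of tumour cells in these barcodes are given below. So the barcodes carry red cell transcripts, and their values are described under that name.

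The libraries held 63001350 and 58915133 UMIs in all. They shared 10 barcode sequences, and none of these was a member. Levels are given as counts per 1000000 (CPM) of the UMIs outside the 4 globins and the mt- genes, 31199 and 27844 UMIs in the members and 58917294 and 55012212 in the other barcodes. At that depth, a gene with 0 counts in the members could lie at up to 96.2 and 108 CPM (3 counts per library).

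By UMI count, the members of replicate 1 held 485069 Hbb-bs, 81003 Hbb-bt, 105156 Hba-a1 and 79886 Hba-a2 molecules. Replicate 2 held 483585, 78685, 109581 and 80716 molecules of the same genes. The ratio of β to α UMIs was 3.06 and 2.95, a mean of 3.01 ± 0.0739 (SD, n = 2), and 2.96 when each gene was divided by the length of its longest annotated transcript. Hbb-bs made up 85.7% of the β UMIs in replicate 1 (85.6 to 85.8%) and 86.0% in replicate 2 (85.9 to 86.1%). Hba-a1 made up 56.8% (56.6 to 57.1%) and 57.6% (57.4 to 57.8%) of the α UMIs, and 51.4% on the per-length scale. The lengths used were 699 bases for Hba-a1 and 554 for Hba-a2. The annotation behind them starts Hba-a1 at position 32283511, before the RefSeq window shown above. A UMI counts a molecule, so the per-length values are another scale and not a correction. The coding sequences of Hbb-bs and Hbb-bt were identical at 440 of 441 bases and those of Hba-a1 and Hba-a2 at 425 of 426. After the stop codon, identity over the alignment was 70.4% for the β pair and 82.2% for the α pair. The β pair had 33 mismatches and 7 gap bases there. The α pair had 0 mismatches and 16 gap bases, so its aligned bases were all identical. Reads that align equally well to both copies cannot be assigned, so the split within each pair is uncertain, above all for the α genes.

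Pooled values hid a wide spread of the minor β gene over single barcodes. The Hbb-bt share of β UMIs ran from 0 to 24.9% over the members of replicate 1, with a median of 11.1%, and from 0 to 26.6% in replicate 2, with a median of 6.96%. The SD over barcodes was 7.89 and 8.29 percentage points, against 0.827 and 0.814 that counting error alone gives at these UMI numbers. Under 2% were 39 members of replicate 1 and 43 of replicate 2, and over 15% were 59 and 44. In each library 1 member had no Hbb-bt UMI, among 503 and 270 β UMIs. The α split varied less, with an SD of 3.44 and 2.99 percentage points for the Hba-a1 share against 2.14 and 2.19 from counting.

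The Hbb-bt share was higher in barcodes with more globin UMIs. Across the 166 members of replicate 1 the Spearman correlation between both was 0.87, and across the 145 of replicate 2 it was 0.89, given as descriptions over barcodes of the same library that share Hbb-bt in both measures. With the UMIs outside globin and mt- genes, which hold no globin count, the correlation was 0.83 and 0.79. Those UMIs themselves correlated with globin UMIs at 0.88 and 0.86 over the same members, so this is not a separate result. The Hba-a1 share of α gave -0.22 and -0.22 with globin UMIs, and the β share of all globin gave -0.10 and -0.11.

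For a description by globin content, the members of each library were ordered by globin UMIs and divided into low, middle and high groups of equal size. The low groups had medians of 1267 and 1492 globin UMIs, the middle groups 4987 and 5304.5, and the high groups 7232 and 8740. The pooled Hbb-bt share of β was 2.29% (2.18 to 2.42%), 11.3% (11.1 to 11.4%) and 18.8% (18.6 to 18.9%) in the low, middle and high groups of replicate 1. In replicate 2 the same groups held 1.54% (1.44 to 1.64%), 9.74% (9.60 to 9.87%) and 18.8% (18.70 to 18.97%). None of these intervals overlapped within a library, and the order was the same in both. Single barcodes did overlap: the highest Hbb-bt share in the low group was 18.6% in replicate 1 and 13.7% in replicate 2, and the lowest share in the high group was 10.1% and 8.15%. The ratio of β to α stayed between 3.02 and 3.15 over the groups of replicate 1 and between 2.90 and 3.04 over those of replicate 2.

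**Figure D2:**
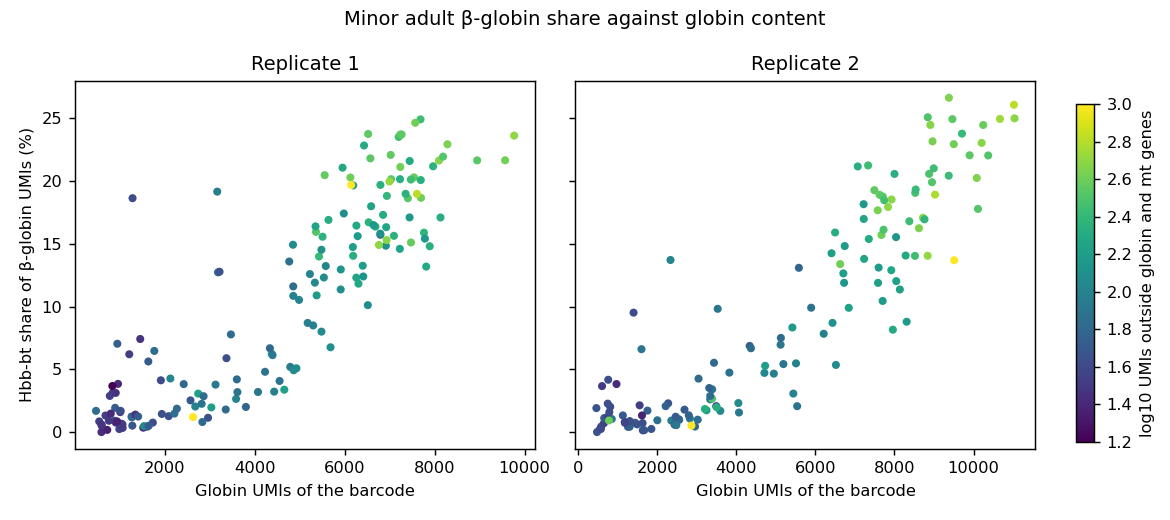
Hbb-bt share of β-globin UMIs (vertical axis, %) against the globin UMIs of each member (horizontal axis) in replicate 1 (left, 166 barcodes) and replicate 2 (right, 145 barcodes), coloured by the log10 number of UMIs outside globin and mt- genes (values over 1000 drawn as 3). Most barcodes with few globin UMIs lie under 5%, and shares over 20% are found mostly among those with many.

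The θ-globin genes Hbq1a and Hbq1b, neighbours of the α genes, were also counted in the members, Hbq1a with 12 and 9 UMIs and Hbq1b with 5 and 9. Hbq1a had 0 counts in the other barcodes. The embryonic globins Hbb-y, Hbb-bh1, Hbb-bh2 and Hba-x had 0 counts in the members of both libraries. Myoglobin (Mb), neuroglobin (Ngb) and cytoglobin (Cygb), oxygen-binding proteins of other tissues, were at 0 as well.

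Outside the globins, few genes carried much of what was left. The 10 genes with most UMIs made up 30.3% and 33.7% of the members' UMIs outside globin and mt- genes, against 7.98% and 7.89% for the 10 leading genes of the other barcodes. In all, 4881 genes had at least 1 count in the members, and 435 were deep enough to be compared. A gene was called higher or lower when it differed at least 4-fold from the other barcodes, in the same direction in both libraries, with at least 10 counts in the members (higher), or at least 10 counts expected there from the other barcodes (lower), in each library. Higher were 106 of the 435 genes (24.4%) and lower were 76 (17.5%), while 253 passed neither limit. These shares are the background for every count of listed genes below. Only 237 of the 435 had 10 counts in the members of each library and could be called higher, and 324 could be called lower. The median log2 difference over the 435 genes was -1.32 and -1.52, so the differences below are relative to the members' own total outside globins. On CPM of all UMIs, globins included, every log2 difference fell by 4.57 and 4.73, and 24 genes were higher and 299 lower. Across the 435 genes the Spearman correlation of the members' profiles between libraries was 0.89, and that of members with other barcodes was 0.078 and -0.013, as a description over genes that are not independent. Genes entered the 435 by depth in either group, and only 126 had both 10 counts in the members and 10 expected there. This choice can itself lower the correlation of members with other barcodes.

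Of the haem synthesis and transport genes, the erythroid enzyme of the first step, the enzyme of the last step and a pair of mitochondrial carriers were higher. Alas2, the rate-limiting enzyme of red cell haem synthesis (ENSMUSG00000025270, chrX:150547375-150570638, plus strand, GRCm38), had 1667 UMIs in the members of replicate 1 and 1522 in those of replicate 2. That is 53431 CPM (50897 to 56059) and 54662 CPM (51950 to 57479). The other barcodes together held 20 and 4 Alas2 UMIs, 0.339 CPM (0.207 to 0.524) and 0.0727 CPM (0.0198 to 0.186). The difference was 157401-fold and 751765-fold, and its size is uncertain on so few UMIs in the other barcodes. Fech, which inserts iron into the porphyrin ring, stood at 7628 and 7542 CPM in the members, 526-fold and 510-fold above the other barcodes. Slc25a37 (mitoferrin), which brings iron into mitochondria, was 35.8-fold and 42.2-fold higher. Slc25a39, a mitochondrial carrier for glutathione, was 51.7-fold and 53.8-fold higher.

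The other 11 of the 15 haem synthesis and transport genes measured did not have 10 counts in the members of each library. Urod, an enzyme of the middle steps, had 6 and 2 counts. Alad and Uros had 0 counts in both libraries, and Alas1, the form of the first enzyme used outside red cells, had 0 and 1. So 4 of 15 were higher and none lower, the same 4 being the only ones deep enough, and the whole list stood at 69521 and 71003 CPM against 551 and 539 CPM in the other barcodes.

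Alas2 UMIs were found in 78.9% of the members of replicate 1 (71.9 to 84.9%) and 81.4% of replicate 2 (74.1 to 87.4%). Among the other barcodes, which hold the tumour and immune cells that should lack the gene, 0.236% and 0.141% held an Alas2 UMI. The members' median depth was 5066.5 and 5270 UMIs outside mt- genes, and that of the other barcodes 9866.5 and 10586. With every barcode thinned to 500 UMIs outside mt- genes, 52.4% and 49.7% of the members held Alas2 and none of the 1918 and 1586 other barcodes that were deep enough did, while 620 and 535 shallower ones were left out. The thinned share holds for that depth only.

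Membrane genes were sparse. Epb41 (protein 4.1), which ties the membrane skeleton to the membrane, had 149 and 136 UMIs in the members, 221-fold and 213-fold above the other barcodes. Tspo2, an erythroid relative of the cholesterol-binding translocator protein, had 21 and 21 UMIs against 0 and 0, at least 13219-fold and 13830-fold higher. Slc4a1 (band 3), the anion exchanger, had 11 and 6 UMIs in the members and 0 in the others. Of the 20 listed membrane genes, 3 were higher and none was lower, the same 3 being the only ones deep enough. A total of 11 had 0 counts in both libraries, among them Epb42, Rhag, Kel, Xk and Gypc.

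Reticulocyte enzymes and maturation genes together held 171416 and 203886 CPM in the members, against 3817 and 3867 CPM in the other barcodes. Bpgm, the red cell enzyme that makes 2,3-bisphosphoglycerate and so tunes oxygen release, had 1263 and 1389 UMIs, 40482 CPM (38280 to 42778) and 49885 CPM (47296 to 52579). It was 1411-fold and 1886-fold higher than in the other barcodes, which held 28.7 and 26.4 CPM. Fam46c, a poly(A) polymerase that stabilises mRNA, was 1143-fold and 1214-fold higher.

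The ubiquitin system, which marks proteins for removal, was represented by several genes. Mkrn1, a ubiquitin ligase, stood at 27052 and 31533 CPM, 682-fold and 770-fold above the other barcodes. Ube2l6, a conjugating enzyme for ubiquitin and ISG15, was 486-fold and 595-fold higher at 15257 and 19537 CPM. Ube2o, the conjugating enzyme that clears ribosomal and other proteins from maturing mouse reticulocytes, had 63 and 55 UMIs and was 119-fold and 109-fold higher. The ubiquitin precursor Ubb was 10.2-fold and 12.1-fold higher at 20353 and 25356 CPM. In a list of 15 ubiquitin genes chosen after values were seen, 8 were higher and none lower among 12 deep enough.

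Bnip3l, the receptor through which reticulocytes remove mitochondria by autophagy, was 65.6-fold and 81.6-fold higher. Gabarapl2 and Map1lc3b, autophagosome proteins, were 54.9-fold and 60.6-fold and 24.5-fold and 31.7-fold higher. Of 13 autophagy genes chosen after values were seen, 5 were deep enough, 4 were higher and none lower, and the cargo receptor Sqstm1 had 3 and 1 UMIs. Among the antioxidant enzymes of the reticulocyte list, Gpx1 (glutathione peroxidase) was 27.7-fold and 27.9-fold higher, Cat (catalase) 66.1-fold and 98.0-fold, and Prdx2 (peroxiredoxin 2) 7.60-fold and 10.1-fold. Car2 (carbonic anhydrase 2), which hydrates carbon dioxide, was 210-fold and 257-fold higher, while Car1 was at 0 in the members of both libraries.

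In all, 15 of the 26 measured genes of the reticulocyte list were higher and none was lower. Only 16 of the 26 were among the 435 genes over which the background of 24.4% and 17.5% was taken. Of the other 11, only Bsg (basigin), a surface glycoprotein, was deep enough, at 1.02-fold and 1.81-fold. A total of 5 had 0 counts, and Trim10, an erythroid ubiquitin ligase, had 17 and 8 UMIs against 10 and 6 in all other barcodes. The median log2 difference of the 16 deep enough was 6.58, against -1.32 and -1.52 over all 435 genes. Genes that were deep enough only through the other barcodes lower the median over the 435. Of the 435, 237 had 10 UMIs in the members of each library. Since a gene counts as higher only with 10 UMIs in the members, the numbers of higher and lower genes describe the list and support nothing beyond it.

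**Figure D3:**
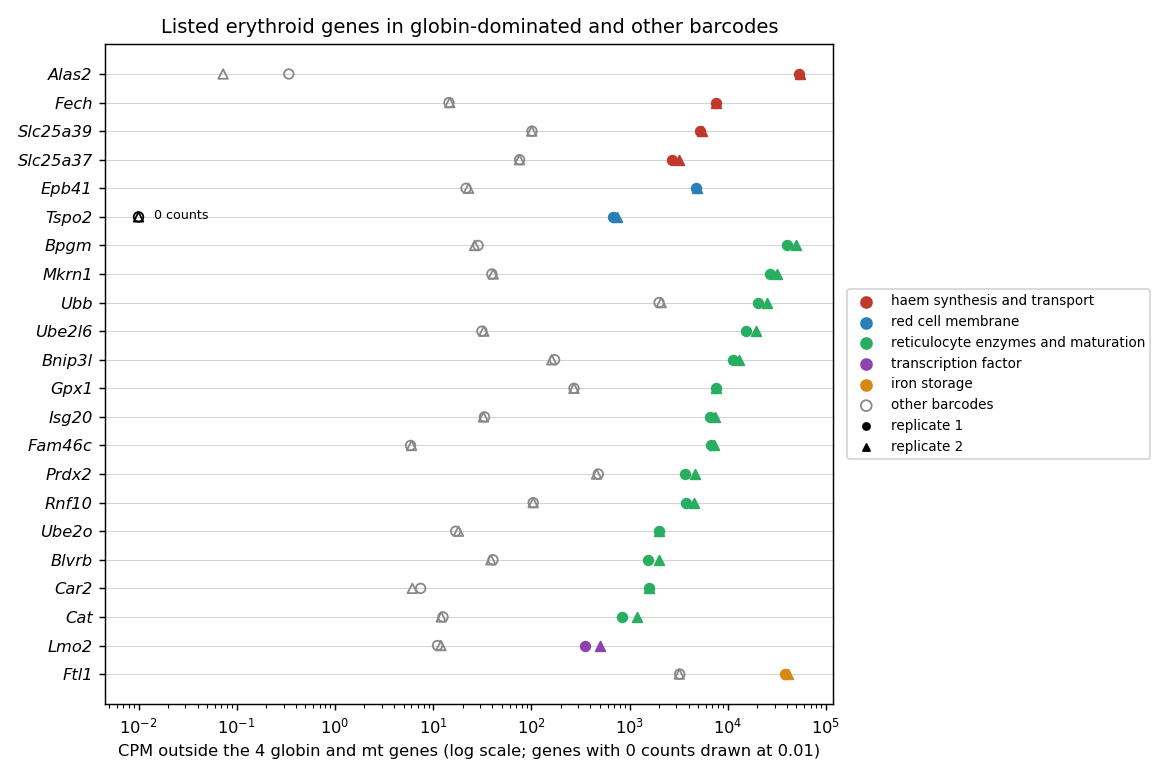
Level of listed erythroid genes called higher (horizontal axis, CPM outside globin and mt- genes, log scale) in the members (filled, coloured by list) and in the other barcodes (open), for replicate 1 (circles) and replicate 2 (triangles). The members of both libraries lie close together and to the right of the other barcodes for every gene drawn; Tspo2 had 0 counts in the other barcodes.

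Iron storage differed between the ferritin chains. Ftl1, the light chain, had 1193 and 1148 UMIs and was 11.8-fold and 12.8-fold higher, at 38238 and 41230 CPM. Fth1, the heavy chain, had 429 and 365 UMIs and was 2.34-fold and 2.27-fold higher, under the limit of 4-fold. Ncoa4, which delivers ferritin to autophagosomes for release of its iron, was 81.1-fold and 83.1-fold higher. Blvrb, biliverdin reductase B, was 37.8-fold and 51.9-fold higher. The iron-sulphur cluster assembly genes Isca1, Iscu, Bola3 and Glrx5, listed after values were seen, were 195-fold and 264-fold, 25.8-fold and 33.9-fold, 20.9-fold and 25.6-fold, and 12.1-fold and 12.1-fold higher. The transferrin receptor Tfrc, the main iron import route of red cell precursors, had 0 counts in both libraries.

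Genes of early erythroid precursors were at or near 0. Of 14 transcription factors and receptors, 11 had no UMI in the members of either library, among them Klf1, Tal1, Nfe2, Gfi1b, the erythropoietin receptor Epor and Kit. Gata1, the master regulator of the red cell lineage, had 1 and 1 UMIs. Only Lmo2, a bridging subunit of the GATA1 complex, was deep enough, with 11 and 14 UMIs, 31.8-fold and 41.9-fold higher. At this depth, 0 counts allow a level of up to 96.2 and 108 CPM.

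Outside the erythroid and cell type lists, the 15 genes that differed most included March2, Isca1, Ncoa4 and Gabarapl2, which the lists chosen after values were seen also hold. Apol11b, an apolipoprotein L family gene, had 69 and 82 UMIs in the members and 0 in the other barcodes, at least 43434-fold and 54003-fold higher. Rec114, known for meiotic recombination, followed with 49 and 32 UMIs against 11 and 13, 8412-fold and 4863-fold; another gene overlaps it on the same strand, so its source is uncertain. Aldh1a1, which makes retinoic acid, was 1259-fold and 2964-fold higher, on 12 and 30 UMIs. Fam220a was 423-fold and 466-fold higher, and a second annotated entry of the same symbol overlaps it on the same strand. The membrane ubiquitin ligase March2 (318-fold and 356-fold) and Isca1 also overlap another annotated gene on their strand. The others were Gda, Cdr2, Ccndbp1, Dhrs11, the mitochondrial carrier Ucp2 (135-fold and 124-fold), Ncoa4, Fam117a, Gabarapl2 and Tfdp2, from 257-fold and 277-fold for Gda down to 53.6-fold and 59.0-fold for Tfdp2. Tfdp2 too overlaps another annotated gene on its strand. Of the 106 higher genes, 103 had levels in the members of replicates 1 and 2 that lay within 2-fold of each other. The same held for 219 of all 237 genes with 10 counts in the members of each library. The higher genes also had to pass the limits in both libraries.

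The lower genes came from several cell functions. The 10 that differed most were Ranbp1 (nuclear transport), Eif4ebp1 (translation control), Ahnak (a scaffold), Fn1 (fibronectin), S100a6 (a calcium-binding protein), Eno1 (glycolysis), Nme1 (nucleotide metabolism), Snrpf (splicing), Ctsl (a lysosomal protease) and Cd9 (a tetraspanin). S100a6 had 12 and 10 UMIs in the members, 385 and 359 CPM against 4352 and 4222 CPM, 11.3-fold and 11.8-fold lower. The other 9 rested on 1 to 6 UMIs per library in the members, so their size is uncertain. All 10 housekeeping genes listed were deep enough. Gapdh, Actg1, Pgk1 and Ppia were lower, none was higher, and Tpt1, the translationally controlled tumour protein, was at 2.93-fold and 2.92-fold. The count of 76 lower genes depends on a few barcodes: without the 4 members that held more than 1000 UMIs outside globins it was 148.

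Ribosomal protein genes made up 15.4% and 12.3% of the members' UMIs outside globin and mt- genes, against 32.5% and 32.5% in the other barcodes. Among 79 of these genes deep enough, 6 were lower and none higher. The ribosomal RNA-related loci Gm42418 and AY036118, which can collect ribosomal RNA reads, stood 16.9-fold and 17.9-fold and 22.7-fold and 29.99-fold higher, and with Lars2 they were listed after values were seen. Gm42418 was found in 97.6% and 98.6% of the members. Whether reads of ribosomal RNA enter these counts was not tested.

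The make-up of the transcripts outside the globins differed along globin content. For this description the 4 barcodes with over 1000 UMIs outside globins were left out. Alas2 stood at 29434 CPM (23266 to 36735) in the low group and at 83580 and 63799 CPM in the middle and high groups of replicate 1. In replicate 2 it stood at 19567 CPM (14781 to 25409), 68971 and 61911 CPM. Bpgm went from 8302 over 37350 to 62305 CPM in replicate 1 and from 1048 over 41205 to 68678 CPM in replicate 2. Mkrn1 ran from 2642 to 38721 CPM and from 699 to 42623 CPM between the low and high groups. For Alas2, Bpgm and Mkrn1 the intervals of the low and high groups did not overlap in either library. These intervals pool the UMIs of a group and do not cover the spread between barcodes. In the low group of replicate 1, single barcodes held from 0 to 12 Alas2 UMIs.

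Other transcripts had the opposite order as a share of the remaining RNA. Ribosomal protein genes went from 27.1% (25.4 to 28.9%) over 13.7% to 8.99% (8.54 to 9.45%) in replicate 1 and from 25.1% over 13.2% to 8.0% in replicate 2. Per barcode they went up, from 13.1 to 25.1 UMIs and from 14.98 to 26.91 UMIs, less than Alas2, which went from 1.42 to 17.9 UMIs and from 1.17 to 20.8 UMIs. Gm42418 went from 74340 to 27092 CPM and from 77568 to 25106 CPM, and Tpt1 from 54340 to 28066 CPM and from 43326 to 25106 CPM. Ftl1 differed little between the ends, at 44528 and 39501 CPM in replicate 1 and at 41230 and 37880 CPM in replicate 2. Markers of other cells in part had the same order. The microglia and macrophage list went from 3019 over 1973 to 1364 CPM in replicate 1 (8, 14 and 21 UMIs) and from 5591 over 2363 to 569 CPM in replicate 2 (16, 16 and 9 UMIs). The housekeeping list went from 67170 to 32549 CPM and from 56254 to 28078 CPM. In the low, middle and high groups the tumour list had 0, 12 and 4 UMIs in replicate 1 and 6, 3 and 4 in replicate 2, which is 2096, 443 and 253 CPM there. Nuclear RNA had 1, 3 and 2 UMIs and 4, 4 and 6 UMIs, the latter 1398, 591 and 379 CPM. The part of other cells' RNA in the shares of the low group was not tested.

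**Figure D4:**
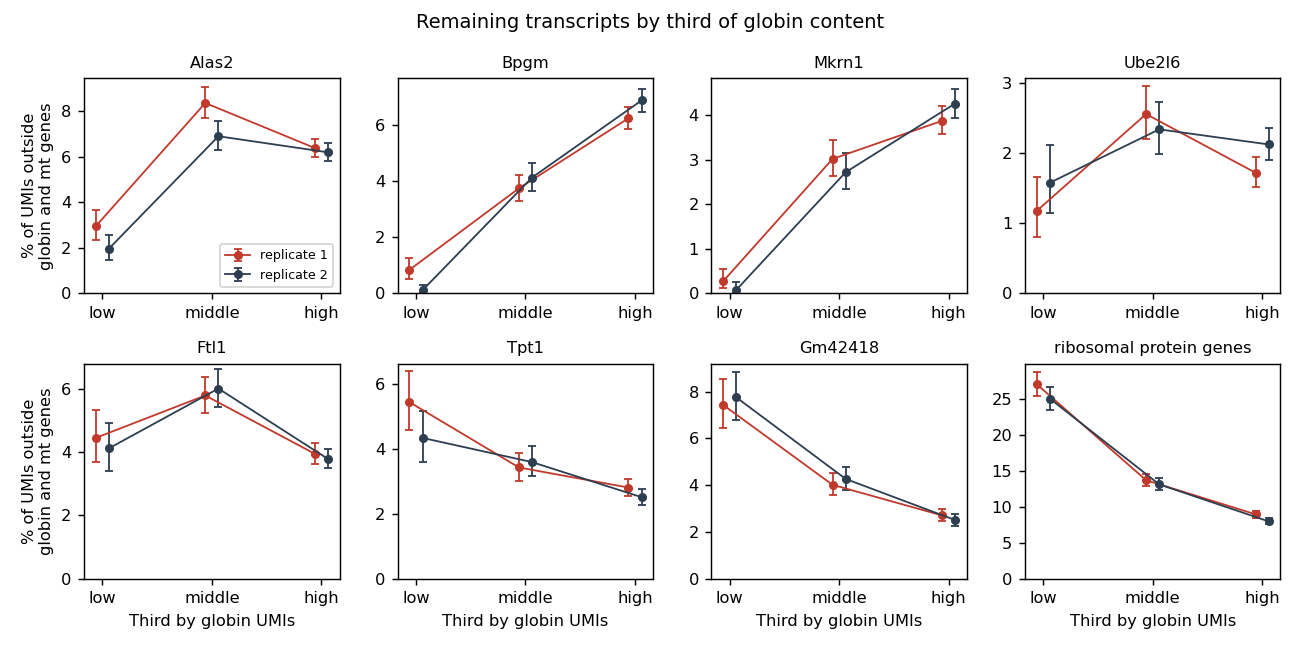
Share of each gene or gene group among UMIs outside globin and mt- genes (vertical axes, %) in the low, middle and high groups of members by globin UMIs, for replicate 1 (red) and replicate 2 (dark), without the 4 barcodes over 1000 UMIs outside globins; bars are exact 95% intervals. Alas2, Bpgm and Mkrn1 are lowest in the low group, and Tpt1, Gm42418 and the ribosomal protein genes are highest there.

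Markers of other cell types were looked for in the members, with each list summed. The tumour list of 16 genes had 16 UMIs in the members of replicate 1 and 27 in those of replicate 2, 513 CPM (293 to 833) and 970 CPM (639 to 1411). That is 15.98% and 26.65% of the level in the other barcodes, 3209 and 3638 CPM. Most of these UMIs came from Nras, a small GTPase of the MAPK pathway, with 10 and 15, from the cell cycle inhibitor Cdkn2a, with 1 and 5, and from the proteoglycan Cspg5, with 1 and 2. A total of 7 of the 16 genes, Tnc and Csf3 among them, had 0 counts. Nras was seen in 5.42% and 5.52% of the members and in 61.4% and 61.4% of the other barcodes, which hold far more UMIs outside globins. Thinned to 500 UMIs outside mt- genes, most of which are globin in the members, 2 of 166 and 0 of 145 members held Nras, against 44.7% and 45.5% of the other barcodes. In CPM outside globins, Nras stood at 321 and 539 in the members and at 2511 and 2954 in the other barcodes. In replicate 2, 13 of the 27 tumour list UMIs lay in 1 barcode.

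The microglia and macrophage list of 14 genes reached 8975 CPM in the members of replicate 1, above the 5604 CPM of the other barcodes, and 1472 CPM against 6087 CPM in replicate 2. Of the 280 UMIs in replicate 1, 235 lay in a single barcode with 1620 UMIs outside globins, 109 of them Apoe, and no Alas2 UMI. Without the members over 1000 UMIs the list stood at 1711 and 1611 CPM, so the libraries then lay close together and below the other barcodes. Apoe, a lipid carrier abundant in macrophages, was found in 11.4% and 13.1% of all members and in 48.0% and 52.4% of the other barcodes, and after the same thinning in 1.81% and 2.76% against 21.3% and 21.9%. The complement genes C1qb and C1qa had 40 and 3 and 33 and 0 UMIs in the members. Csf1r and P2ry12, receptors that define microglia and macrophages, were at 0 in both libraries.

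All 118 B cell list UMIs of replicate 1 lay in another barcode, and replicate 2 had none. The immunoglobulin genes Igkc and Ighm gave 43 and 20 of them and Cd79a, part of the B cell receptor, gave 18. That barcode held 4442 UMIs outside globins, 111 of the 127 dendritic list UMIs (Cd74, H2-Ab1 and H2-Aa, which B cells also express, gave 90, 20 and 17 of the 127), 71 UMIs of the nuclear RNA Malat1, and 14 of Alas2. It also held 77 of the 83 nuclear RNA UMIs of replicate 1. Without the members over 1000 UMIs, nuclear RNA stood at 239 and 550 CPM against 4928 and 5479 CPM in the other barcodes. In replicate 2, the members with over 1000 UMIs outside globins held 1028 UMIs with 14 of Alas2, and 1370 UMIs with 6 of Alas2 and 13 of the tumour list. Whether these barcodes hold a second cell was not tested.

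Few UMIs of the remaining lists were found. Platelet genes, such as Pf4 and Ppbp, had 0 counts for all 12 genes in both libraries. Neutrophil genes had 1 and 2 UMIs, T and NK cell genes 1 and 0, basophil and mast cell genes 0 and 1, endothelial and mural genes 1 and 0, and monocyte genes 21 and 4, of which 19 and 2 were Lyz2. The cell cycle list had 40 and 65 UMIs, of which Ube2c, a conjugating enzyme of mitosis, gave 34 and 48. Ube2c was 3.99-fold and 5.72-fold higher than in the other barcodes, just under the limit in replicate 1, while Mki67 had 1 and 0 UMIs and Cdk1 1 and 1. So the list was carried by a single gene, and 2 of its 15 genes had no count.

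**Figure D5:**
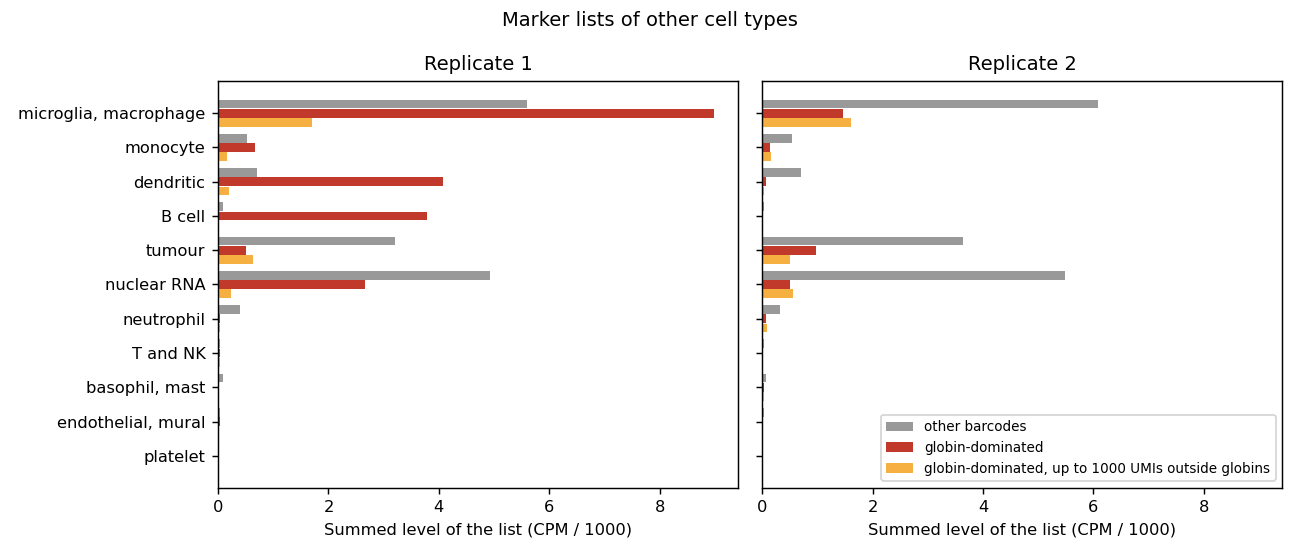
Summed level of marker lists of other cell types and of nuclear RNA (horizontal axis, 1000 CPM units, outside globin and mt- genes) in replicate 1 (left) and replicate 2 (right), in the other barcodes (grey), all members (red) and the members with up to 1000 UMIs outside globins (orange). Without the 2 members over 1000 UMIs in each library, every list drawn lies below its level in the other barcodes, except T and NK genes in replicate 1, with 1 UMI.

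In most of the other barcodes, globin RNA was absent or at the level of single molecules. No globin UMI was found in 67.5% and 64.1% of the other barcodes, and 629 and 569 of them held exactly 1. Barcodes with under 10 globin UMIs held a mean of 0.422 and 0.473. That mean was 0.253 and 0.253 among barcodes with under 100 UMIs outside mt- genes, whose median was 61 and 59.5 UMIs, and 0.539 and 0.651 among those with at least 10000, whose median was 38823 and 42872. In these barcodes Hbb-bs made up 85.1% of β (82.5 to 87.4%) and 87.4% (85.0 to 89.6%), intervals that hold the pooled 85.7% and 86.0% of the members. Their ratio of β to α was 4.37 and 4.75, above 3.06 and 2.95 in the members, and the intervals of the β share did not overlap (78.9 to 83.7% and 80.1 to 84.9%, against 75.3 to 75.5% and 74.6 to 74.8%).

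A further 6 and 5 of the other barcodes held 20 or more globin UMIs. Most globin UMIs outside the members lay in them, 12498 of 13567 in replicate 1 and 2005 of 3005 in replicate 2. The highest had 7193 in replicate 1, together with 44451 other UMIs, 143 of them from the tumour list, and 959 in replicate 2, together with 11225 other UMIs, 1441 of them from the microglia and macrophage list. No barcode lay between 10 and 19 globin UMIs. These 6 and 5 barcodes held 16 of the 20 and 2 of the 4 Alas2 UMIs found outside the members.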

How the data were processed

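Droplet single-cell RNA was counted in 2 libraries of mIDH1 mouse brain tumour. Per the labels, the authors ran Cell Ranger 3.1, aligned reads to mm10 with STAR, and deposited filtered counts of UMIs per gene and barcode. The labels also name scaling of runs to the same depth, but the deposited counts are whole numbers with different totals and were used as they are. The annotation behind them is not given in the sources used here.

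Counts were summed per library over the members and over all other barcodes (Python 3.11.15, numpy 2.4.6, scipy 1.17.1, pandas 2.3.3, matplotlib 3.10.9) and divided by the UMIs outside the 4 globins and mt- genes. A gene at 0 was given the floor of 3 counts per library. Doublets were not called. A barcode with both globin and other RNA was a member only where its globin share passed the limit. Some barcodes with many globin UMIs therefore lie among the other barcodes, and whether they hold a second cell was not tested. Shares are given with exact Clopper-Pearson intervals and levels with exact Poisson intervals. Barcodes were thinned to 500 UMIs with a fixed seed. Gene positions and transcript lengths came from GENCODE M21 (GRCm38, the assembly of mm10), promoters from RefSeq (GRCm38.p6), with alignments by biopython 1.88.

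The members and gene lists were chosen with earlier results of these data known, and the ubiquitin, autophagy, iron-sulphur, ferritin and rRNA lists after values were seen. The text names listed erythroid genes with 10 counts in each library, the 15 highest and 10 lowest genes outside the first lists, and leading genes of other lists. The 4 added alternatives (members up to 1000 UMIs, per-length ratios, other barcodes under 10 globin UMIs, thinning) were chosen after seeing the data. The labels do not say whether the libraries are separate animals, so the SD between them may be technical. Some listed genes are counted in their lists but not reported here.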

Additional observations from a re-analysis of the deposited data

How the results depend on the processing

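Requiring at least 50, 200 or 500 UMIs outside mt- genes left all values as they were. Every member held more than 500, and the looser limit of 50 added no member. Of 171 values under the other 17 settings for 15 results, 130 stayed within the spread between libraries (counts: within 1.5 times), 41 moved and none reversed. With either library left out, every value other than a count stays within that spread by arithmetic, so those values say nothing about stability. No member was a shared barcode, so leaving these out changed the other barcodes alone. The microglia and B cell lists (5224 and 1891 CPM) differ so much between libraries that 1526 and 0 CPM with a share over 70% lay within that spread. The count of lower genes (76) was the least stable: 143 with a globin share over 70% or over 90%, 123 with members under 500 UMIs outside globins and 148 with up to 1000. It was 299 and the higher genes 24 on CPM of all UMIs, 12965 and 218 with no count minimum, 31 with at least 30 counts, 232 at 2-fold and 10 at 8-fold. With either library left out, when only 1 library had to pass, it was 147 to 157. The log2 difference of the haem synthesis list (7.01) was 7.20 with a share over 70% or over 90%, 7.25 under 500 UMIs, 7.21 up to 1000 and 2.36 on CPM of all UMIs. The tumour list (21.3% of its level elsewhere) stood at 0.837% on CPM of all UMIs and 35.2% as a mean of barcode shares. With members under 500 UMIs, they made up 6.04% of barcodes and Hbb-bs 86.1% of β; per transcript length Hbb-bs was 87.2% of β and Hba-a1 51.4% of α. The 41 include 17 for levels of Alas2 and 4 lists and the median UMIs per member, 12 of them upward. No paired analysis was possible because both libraries belong to 1 group. Members held few UMIs outside globins, which limits every level given for them.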
